A study of Caenorhabditis elegans with 6 samples.

Results

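The astacin genes of *C. elegans* encode zinc metalloproteases that are made with a signal peptide and an inhibitory prodomain, and most of them are secreted. They were taken here as every gene of the count table whose WormBase symbol is *nas* followed by a number, together with *dpy-31*, *hch-1* and *toh-1*, and without *nas-36* and *nas-37*. This gave 38 of the 46661 genes in the table. Gene expression was measured by RNA-seq in whole animals at the L4 larval stage, with 3 biological replicates of each strain. N2, the wild-type, was compared with *folr-1(syb4116)*, in which CRISPR/Cas9 editing placed an early stop codon in *folr-1*, the gene of the worm folate receptor homolog on chromosome X. Both strains were kept at 20 °C from the L1 stage on RNAi plates with HT115 bacteria that carried the empty vector, so no gene was knocked down. The comparison asks what the loss of FOLR-1 does to gene expression, and it rests on 1 mutant allele in a strain outcrossed to N2.

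Astacins cut extracellular proteins such as procollagens, other matrix proteins and growth factor antagonists. In *C. elegans* they are known for work on the cuticle and the eggshell. DPY-31 is a procollagen C-proteinase of the cuticle, and HCH-1 is the hatching enzyme. NAS-6 and NAS-7 act in the pharynx, NAS-38 promotes sleep during the moult, and NAS-39 has the domain plan of the tolloid proteases, which in other animals process procollagen and release BMP ligands. The other members are named mainly by their place in the family, whose subgroups differ in the domains that follow the protease domain. Subgroup I (*nas-1* to *nas-5*) has little beyond the protease domain, subgroup II (*nas-6* to *nas-15*) carries ShK domains, and subgroup III (*nas-16* to *nas-30*, with *toh-1*) carries EGF-like and CUB domains. Subgroup IV is *nas-31* and *nas-32*, subgroup V (*nas-33* to *nas-38*, with *hch-1* and *dpy-31*) ends in thrombospondin-type domains, and subgroup VI is *nas-39*.

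The 6 libraries held from 21646678 to 25946226 counts on genes, and pairs of libraries within a strain differed beyond counting error (chi-square over degrees of freedom, 3.28 to 8.60). Read counts on *folr-1* were 32, 37 and 59 in N2 and 14, 11 and 7 in the mutant (log2 fold change -2.02, SE 0.31, adjusted p = 4.99e-04 from the quasi-likelihood test of edgeR, adjusted by Benjamini-Hochberg). The same test was used for all genes, and a gene was called at an adjusted p under 0.05 over the 15432 genes that passed a filter on low counts. Levels are given as FPKM, which is per gene length, and as CPM, in which counts are set against the library size after scaling. Of the tissue markers, *unc-54* of body wall muscle, *myo-2* of pharyngeal muscle and the sperm gene *spe-9* were lower in the mutant (adjusted p = 4.12e-04, 0.00332 and 0.0363 from edgeR). The sperm genes *spe-38* and *spe-11* were not called (log2 fold changes -0.65 and -0.03, adjusted p = 0.188 and 0.827 from edgeR). The sum of the 3 sperm genes overlapped between strains (60.7 to 66.0 CPM in N2 and 57.8 to 63.5 CPM in the mutant). The intestinal protease gene *asp-1* and the epidermal collagen genes *rol-6* and *dpy-13* were higher (adjusted p = 2.39e-04, 0.00471 and 0.00241). Summed over both muscle markers the level was 6052 to 6164 CPM in N2 and 4636 to 5410 CPM in the mutant. Over the 3 epidermis markers it was 1367 to 1495 and 1636 to 1766 CPM, over the 4 intestine markers 4069 to 4099 and 4571 to 4728 CPM, and over the 3 germline markers, none of them called, 1191 to 1209 and 1116 to 1142 CPM. Over the 4 pharynx markers it was 349 to 358 and 298 to 323 CPM, of which *myo-2* made up 337 CPM of a mean of 354 CPM in N2, and *phat-1*, *phat-3* and *pqn-8* were not called (log2 fold changes 0.11, -0.17 and -0.19). The muscle, epidermis and intestine sums also lay mostly with single genes. In N2, *unc-54* made up 5607 of a mean of 6096 CPM, *dpy-13* 1292 of 1446 CPM and *asp-1* 3419 of 4082 CPM. *myo-3*, *dpy-7*, *ges-1*, *elt-2* and *vha-6* were not called (log2 fold changes -0.10, 0.04, 0.06, 0.23 and 0.01). The part of these differences in the results below was not tested.

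No astacin gene rose in *folr-1(syb4116)* and 5 fell, namely *nas-17*, *nas-19*, *nas-24*, *nas-11* and *nas-9*. No library held a count of 4 of the 38 genes, 3 more had too few counts to be tested and 31 were tested. The 5 lower genes were 16.1% of those tested, while over all tested genes 3.32% were called lower, 3.64% higher and 6.95% in either direction. The first 3 of them fell by more than 2-fold, which is 9.68% of the tested members against 0.985% of all tested genes. *nas-17* and *nas-19*, at or under 3 counts in every mutant library, passed the filter on low counts only through N2. *nas-24*, with 21, 11 and 5 counts in the mutant, would also not have passed it without the N2 libraries. With at least 10 counts required in every library, these 3 genes were not tested, and 2 of 28 tested members were called lower. In 9 members all mutant libraries lay below all N2 libraries (29.0%, where the share over all tested genes was 12.9%), and in 0 members they all lay above (12.3% over all tested genes). These 9 were the 5 called genes with *nas-4*, *nas-14*, *nas-20* and *nas-32*, and in the other 22 the strains overlapped. The median log2 fold change of the tested members was -0.07, with 24 below 0 and 7 above, beside a median of 0.0028 for all tested genes. In RNA from whole animals, fewer cells of a type and less RNA per cell cannot be told apart.

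**Figure D1:**
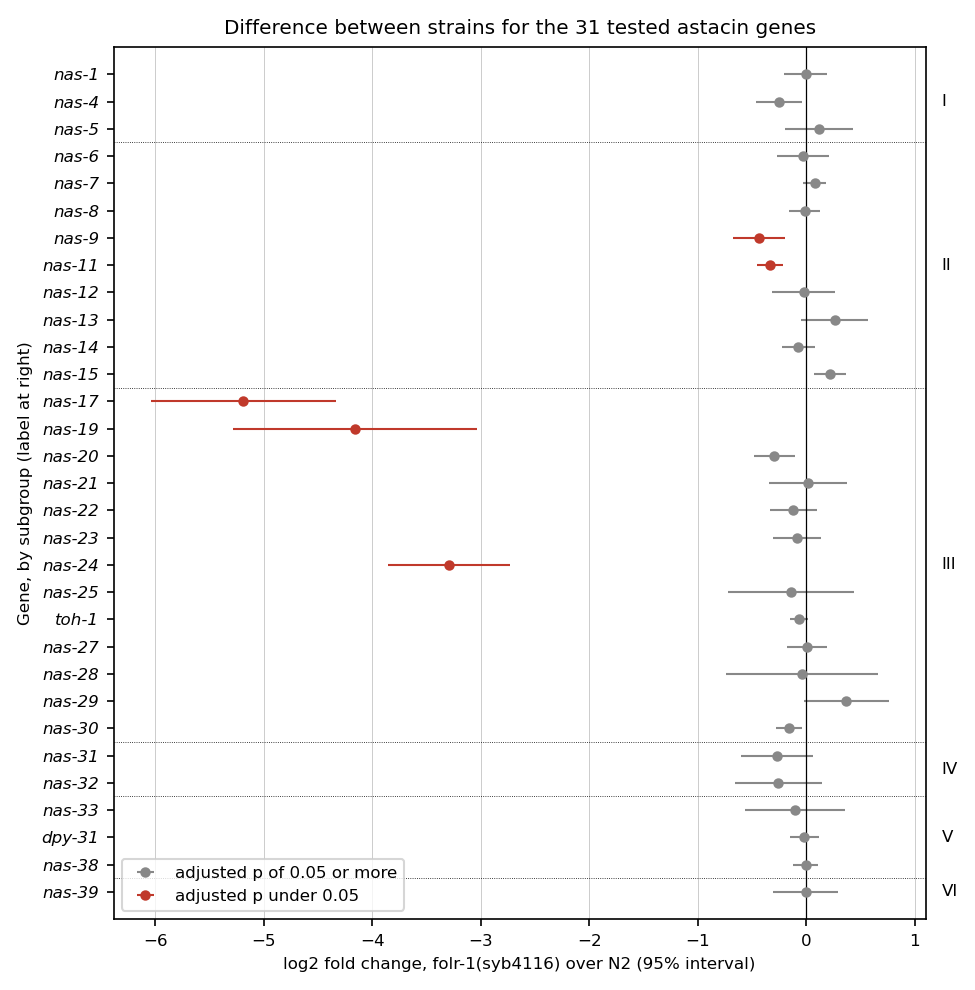
Log2 fold change of *folr-1(syb4116)* over N2 for the 31 tested astacin genes, ordered by family number and subgroup (right). Bars are symmetric 95% intervals derived from the fold change and F statistic of the edgeR test. Genes called at an adjusted p under 0.05 are red: *nas-17*, *nas-19* and *nas-24* lie at -5.19, -4.16 and -3.30, *nas-9* and *nas-11* at -0.44 and -0.33, and the other 26 between -0.30 and 0.37.

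The largest difference was in *nas-17* (K03B8.2, WBGene00003536), a subgroup III gene at V:11398916-11400563 on the plus strand of WBcel235. It had 46, 48 and 62 counts in N2, but only 2, 1 and 1 in the mutant. These are 1.56, 1.59 and 1.81 FPKM against 0.0578, 0.0307 and 0.0344 FPKM. All mutant libraries were thus at or under 3 counts, a floor that corresponds to 0.117 to 0.139 CPM, and none came near an N2 library. Set against 3 counts in each mutant library, *nas-17* was at least 17.8-fold lower in *folr-1(syb4116)*. The fitted log2 fold change was -5.19 (SE 0.40, adjusted p = 3.98e-07 from edgeR), and with each library left out in turn it was -5.51 to -5.03.

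Its neighbour *nas-19* (K03B8.5, WBGene00003538; V:11401091-11402710, minus strand) faces *nas-17* with a gap of 0.527 kb between the 3′ ends, and it too belongs to subgroup III. It had 24, 25 and 27 counts in N2 and 2, 0 and 2 in the mutant. The FPKM values were 0.920, 0.939 and 0.892 in N2 and 0.0653, 0 and 0.0778 in *folr-1(syb4116)*. The N2 libraries were close to each other (coefficient of variation 2.52%), and the mutant libraries again stood at or under the floor. Set against 3 counts in each mutant library, the gene was 8.66-fold lower in the mutant, a bound that covers counting error only. The fitted log2 fold change was -4.16 (SE 0.53, 95% interval -5.28 to -3.04, adjusted p = 8.53e-05 from edgeR).

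The third member of subgroup III that fell was *nas-24* (F20G2.4, WBGene00003543; V:13769386-13771329, plus strand). It was the best measured of these genes, with 123, 115 and 117 counts in N2 and 21, 11 and 5 counts in the mutant. The level was 4.54, 4.16 and 3.72 FPKM in N2 and 0.660, 0.367 and 0.187 FPKM in *folr-1(syb4116)*, or 4.14 ± 0.409 against 0.405 ± 0.239 FPKM (SD, n = 3). The lowest N2 library was thus well above the highest mutant library, and the mutant libraries differed more among themselves (coefficient of variation 59.1% against 9.76%). The fit gave a 9.82-fold lower level (log2 fold change -3.30, SE 0.26, adjusted p = 5.78e-07 from edgeR), and -3.85 to -2.99 with each library left out.

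**Figure D2:**
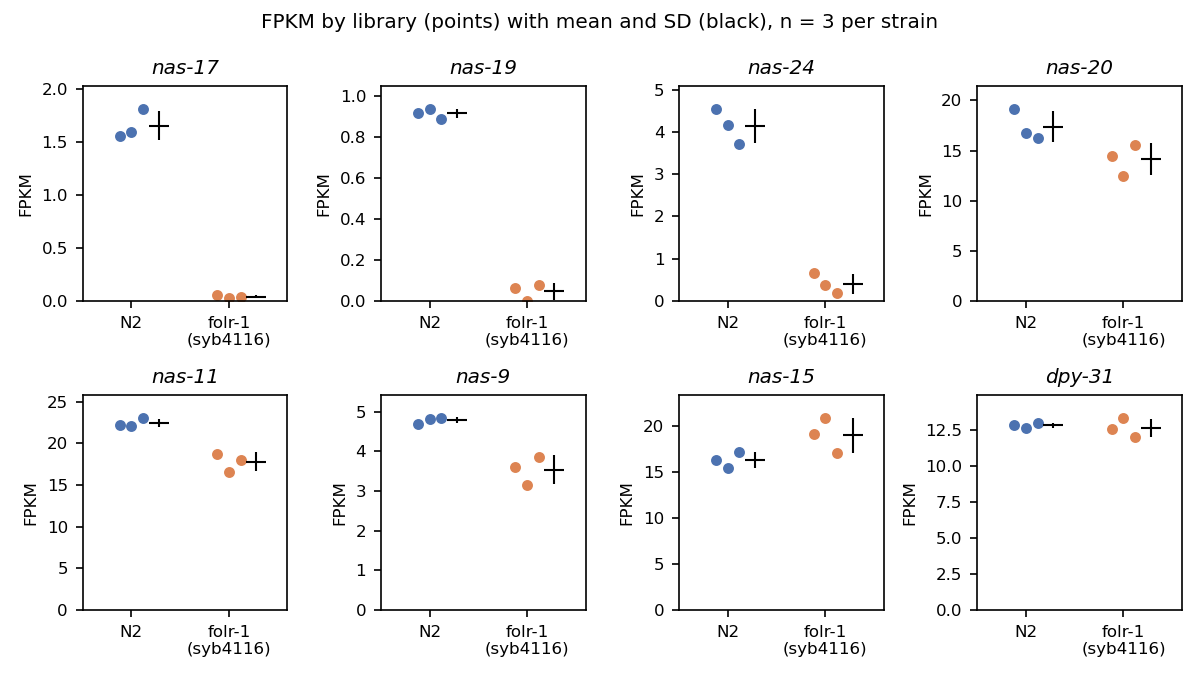
FPKM of 8 astacin genes in each library (points), with the mean and SD (black) of the 3 libraries of each strain, on linear axes from 0. The mutant points of *nas-17* and *nas-19* lie at or near 0 and those of *nas-24* at 0.187 to 0.660 FPKM, *nas-20*, *nas-11* and *nas-9* are separated by smaller steps, and the points of *nas-15* and *dpy-31* overlap between strains.

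*nas-17* and *nas-19* lie in a run of 4 astacin genes on chromosome V, and the other genes of the run had almost no reads. *nas-16* had 0 counts in every library, which allows up to 3 counts in each. *nas-18*, 1.20 kb from *nas-17*, had 1, 1 and 0 counts in N2 and 0, 0 and 1 in the mutant. Family members that lie side by side can be alike in sequence, and how the authors' counting treated reads with several matches is not given in the sources used here. A second run of subgroup III genes, *nas-20*, *nas-21* and *nas-22*, follows 68.2 kb further on, and none of its genes was called. *nas-20* stood at 19.1, 16.7 and 16.3 FPKM in N2 and 14.5, 12.4 and 15.5 FPKM in the mutant (log2 fold change -0.30, SE 0.090, adjusted p = 0.0600 from edgeR). Its libraries did not overlap between strains, and it passed the threshold without the third mutant library (-0.36, adjusted p = 0.0467). It also passed with no filter on low counts and with the trend on gene length removed, but not when a replicate block was added to the latter. *nas-21*, which starts 0.254 kb from it, had 3.72, 2.75 and 2.59 FPKM in N2 and 3.13, 3.08 and 2.89 FPKM in the mutant, and *nas-22* had 7.90, 9.07 and 9.28 against 8.56, 7.56 and 8.05 FPKM. In both of these the strains overlapped.

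Most genes around the 3 that fell most were not called, as was so for all tested genes, of which 6.95% were called in either direction. Of 30 genes that start within 20 kb of the start of *nas-17*, 9 were tested, and only *nas-19* was called lower and 0 were called higher. The 8 others included the cuticle collagen genes *col-154* and *col-155* and the acetylcholine receptor subunit genes *deg-3* and *des-2*. The most negative of those 8 was K03B8.8, with 48, 63 and 52 counts in N2 and 47, 28 and 31 in the mutant (log2 fold change -0.66, SE 0.23, adjusted p = 0.0999). K03B8.14, which was not tested, had 3, 5 and 3 counts in N2 and 0 in every mutant library. Within the same distance of *nas-24*, 11 of 15 genes were tested, with 0 called lower and 1 higher, the 2,4-dienoyl-CoA reductase gene *decr-1.1* (log2 fold change 0.23, SE 0.045, adjusted p = 0.00412 from edgeR). F20G2.5, the next gene on the strand of *nas-24*, had 61, 45 and 63 counts in N2 and 44, 36 and 24 in the mutant (-0.74, SE 0.22, adjusted p = 0.0576). Out to 100 kb, 36 other genes were tested around *nas-17*, with *nas-19* the 1 lower gene and 1 gene higher, and 33 around *nas-24*, with 2 lower, neither by more than 2-fold, and 1 higher. Over all of chromosome V, 3.95% of 2989 tested genes were called lower and 1.24% were lower by more than 2-fold. Of the astacin genes, 4 of 9 tested on chromosome V and 1 of 22 tested elsewhere were called lower.

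**Figure D3:**
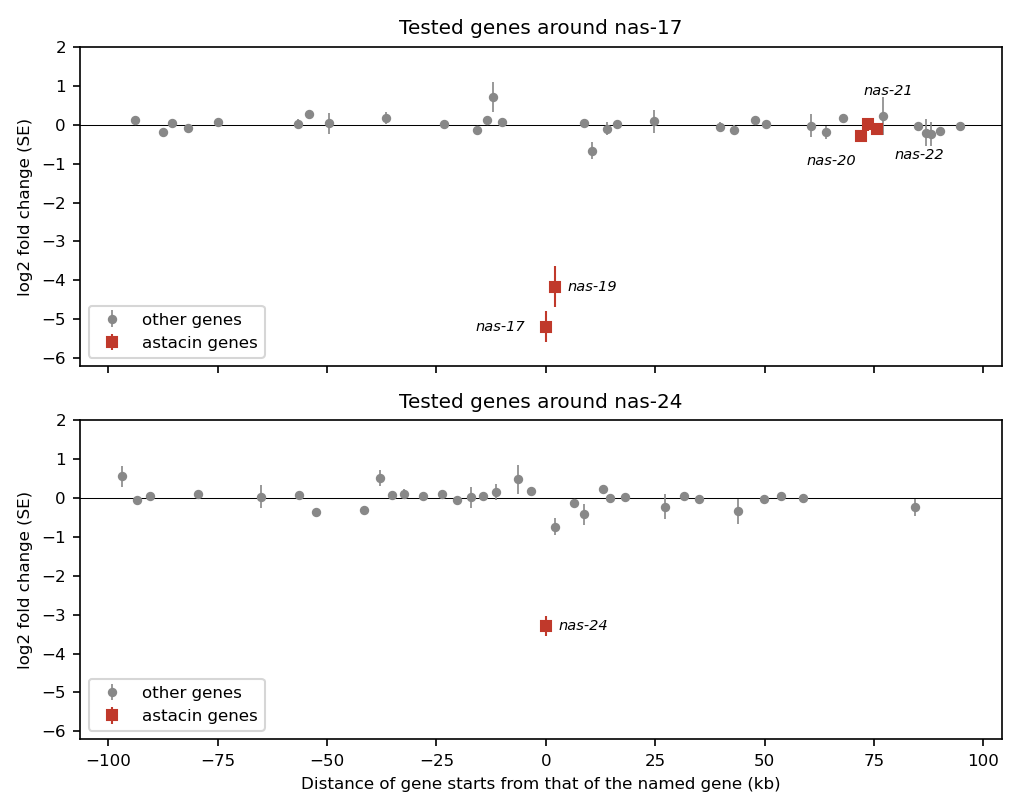
Log2 fold change (bars, SE) of the tested genes that start within 100 kb of *nas-17* (top) and of *nas-24* (bottom), against the distance between gene starts in kb. Astacin genes are red squares and other genes grey: *nas-17* and *nas-19* lie below -4 and *nas-24* at -3.30, while no other gene in either window goes below -0.74.

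Some male-associated markers were also lower in the mutant. Hermaphrodite cultures can hold a few males. Of 11 male-associated genes 6 were tested and 3 were called lower in the mutant, while 3.32% of all tested genes were called lower. These 3 were *lov-1* and *pkd-2*, which encode the polycystins of male sensory neurons, and *mab-3*, which acts in male development. Their log2 fold changes were -3.47, -2.62 and -1.01 (SE 0.61, 0.48 and 0.19, adjusted p = 0.00150, 0.00248 and 0.00310 from edgeR). With 2, 2 and 0 counts of *lov-1* and 4, 1 and 4 of *pkd-2* in the mutant, these genes passed the filter on low counts only through N2. For them the set of tested genes thus favoured a lower call. All 11 had counts, and their summed level was 7.60 to 9.41 CPM in the N2 libraries and 3.61 to 4.42 CPM in the mutant libraries, with *mab-3* alone at a mean of 4.05 and 2.01 CPM. *cwp-1*, which was not tested, had 7, 4 and 7 counts in N2 and was at 0 in all 3 mutant libraries. *cwp-4*, *cwp-5* and *try-5* of the same list were not called (log2 fold changes 0.12, -0.03 and -0.78, adjusted p = 0.923, 0.980 and 0.273), and *trf-1*, with 5, 3 and 5 counts in N2 and 2, 4 and 8 in the mutant, was not tested. Which cells express *nas-17*, *nas-19* and *nas-24* was not measured, and the part of these markers in their difference was not tested.

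In subgroup II, *nas-11* and *nas-9* fell by less than 2-fold. *nas-11* (K11G12.1, WBGene00003530; X:6713577-6716357, plus strand) was the most abundant called gene, at 22.2, 22.1 and 23.02 FPKM in N2 and 18.8, 16.6 and 18 FPKM in the mutant. The means were 22.4 ± 0.521 and 17.8 ± 1.11 FPKM (SD, n = 3), and no mutant library reached the lowest N2 library. The fitted level decreased by 20.7% (log2 fold change -0.33, SE 0.058, adjusted p = 0.00145 from edgeR), and with each library left out the log2 fold change was -0.38 to -0.29. Its span shares 163 bp with *smf-2*, a metal transporter gene on the other strand, on which only 6 counts in N2 and 4 in the mutant were found over all libraries.

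*nas-9* (C37H5.9, WBGene00003528; V:4836027-4840013, minus strand) had 4.70, 4.83 and 4.84 FPKM in N2 and 3.59, 3.15 and 3.86 FPKM in *folr-1(syb4116)*. The mean went from 4.79 ± 0.0772 to 3.53 ± 0.361 FPKM (SD, n = 3), with all mutant libraries below all N2 libraries. The log2 fold change was -0.44 (SE 0.11, adjusted p = 0.0247 from edgeR). This was the weakest of the 5 calls. It was lost with DESeq2 (adjusted p = 0.0761), with limma on log2(FPKM + 1) and log2(FPKM + 0.1) (adjusted p = 0.0791 and 0.0836), and without any one of N2 replicate 2, N2 replicate 3, mutant replicate 1 or mutant replicate 2 (adjusted p = 0.0786, 0.0633, 0.0566 and 0.104). *cwp-1*, *cwp-2* and *cwp-3* of the male-associated list lie upstream of its start, with gaps of 0.603, 1.92 and 2.82 kb, a position looked up after their values were seen. *cwp-2* had 10, 4 and 6 counts in N2 and 1 in each mutant library, and *cwp-3* had 2, 2 and 1 in N2 and 1, 0 and 0 in the mutant. None of the 3 had enough counts to be tested.

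**Figure D4:**
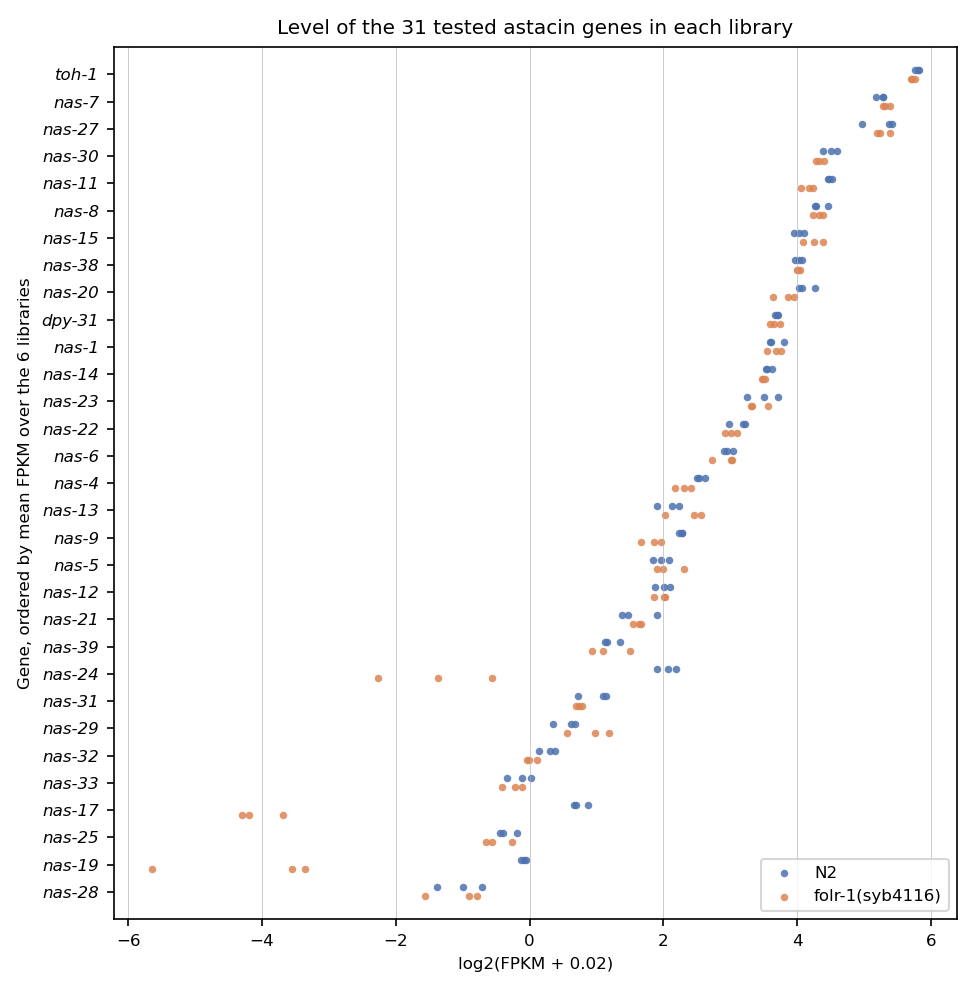
Level of the 31 tested astacin genes in each library as log2(FPKM + 0.02), ordered by the mean FPKM over the 6 libraries, with N2 above and *folr-1(syb4116)* below on each line. The levels run from *toh-1*, at 52.0 to 56.3 FPKM, down to *nas-28*, at 0.317 to 0.588 FPKM, and the mutant points of *nas-17*, *nas-19* and *nas-24* stand far to the left of the N2 points, the leftmost point of *nas-19* being a library at 0.

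The cuticle gene *dpy-31* did not pass the test, nor did *toh-1* and *nas-38*. *toh-1* (T24A11.3), named for its likeness to tolloid, was the most abundant astacin gene, with 55.7, 56.3 and 54.1 FPKM in N2 and 54.1, 52.0 and 52.3 FPKM in the mutant. Its log2 fold change was -0.07 (95% interval -0.15 to 0.02, adjusted p = 0.392 from edgeR). *dpy-31* (R151.5) had 12.9, 12.7 and 13.04 FPKM in N2 and 12.6, 13.4 and 12.1 FPKM in the mutant, so the strains overlapped. Its log2 fold change was -0.02 (95% interval -0.15 to 0.11, adjusted p = 0.900). *nas-38* (F57C12.1), the gene linked to sleep in the moult, was at 16.3, 15.6 and 16.7 FPKM in N2 and 15.9, 16.1 and 16.4 FPKM in the mutant (log2 fold change -0.01, 95% interval -0.12 to 0.10, adjusted p = 0.957). In *toh-1* and *nas-38*, as in *dpy-31*, the interval lay within 0.2 of 0.

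The pharyngeal pair was not called either. *nas-7* (C07D10.4), the second most abundant member, had 38.9, 36.2 and 39.1 FPKM in N2 and 39.7, 42.0 and 38.7 FPKM in the mutant (log2 fold change 0.08, 95% interval -0.03 to 0.18, adjusted p = 0.436). *nas-6* (4R79.1) had 8.17, 7.48 and 7.69 FPKM in N2 and 8.12, 8.07 and 6.63 FPKM in the mutant (-0.03, 95% interval -0.27 to 0.21, adjusted p = 0.928). The strains overlapped in both, beside the lower *myo-2* level of the pharyngeal muscle given above. *nas-39* (F38E9.2), the tolloid-type gene, was scarce and varied more in the mutant, with 2.15, 2.52 and 2.21 FPKM in N2 and 2.81, 1.90 and 2.11 FPKM in *folr-1(syb4116)* (-0.01, 95% interval -0.31 to 0.29, adjusted p = 0.985). The hatching gene *hch-1* (F40E10.1) had 0 counts in every library of this larval stage.

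Among the other abundant members, *nas-27* varied most between libraries of one strain. It had 31.3, 41.2 and 42.8 FPKM in N2 (coefficient of variation 16.3%) and 36.4, 41.7 and 37.5 FPKM in the mutant, and the log2 fold change was 0.0033 (95% interval -0.18 to 0.19, adjusted p = 0.988). *nas-30*, with 20.8, 22.8 and 24.1 FPKM in N2 and 20.0, 21.1 and 19.4 FPKM in the mutant, was not called (-0.16, SE 0.058, adjusted p = 0.120) unless N2 replicate 1 was left out (-0.22, adjusted p = 0.0359). *nas-8* was at 19.4, 21.9 and 19.2 FPKM in N2 and 20.8, 20.0 and 18.8 FPKM in the mutant (-0.02, 95% interval -0.16 to 0.13, adjusted p = 0.923). *nas-15*, a neighbour of these in level and a member of the same subgroup as *nas-11*, went the other way, with 16.3, 15.4 and 17.1 FPKM in N2 and 19.1, 20.8 and 17.04 FPKM in the mutant. It was not called (log2 fold change 0.22, SE 0.069, adjusted p = 0.0671), and passed the threshold without mutant replicate 3 (0.29, adjusted p = 0.0214), the 1 mutant library that lay within the N2 range.

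Over the whole family the levels spanned a wide range. The mean over all libraries was above 10 FPKM in 13 members, from 1 to 10 FPKM in 13 and below 1 FPKM in the other 8 with counts. Of the 13 abundant genes, all of them tested, 1 was called (*nas-11*), while 6.95% of all tested genes were called in either direction. When members were placed in order of level, only 4 neighbouring pairs did not overlap over the 6 libraries. These were *toh-1* and *nas-7*, *nas-27* and *nas-30*, *nas-23* and *nas-22*, and *nas-6* and *nas-4*. The order within *nas-30*, *nas-11*, *nas-8*, *nas-15*, *nas-38* and *nas-20* (15.8 to 21.4 FPKM on average) was therefore not resolved from one gene to the next. A pair of gene models with the symbol *nas-2*, F56A4.1 and Y19D10A.6, had 0 counts in every library. *nas-3* had 1, 9 and 7 counts in N2 and 2, 13 and 2 in the mutant, and *nas-10* had 2, 0 and 3 against 1, 0 and 0. At these depths no difference was detectable in either of the last 2 genes.

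The 26 tested members that were not called had log2 fold changes from -0.30 to 0.37 with a median of -0.03, and 14 of them were within 0.1 of 0. In 6 of them (*nas-7*, *nas-8*, *toh-1*, *nas-27*, *dpy-31* and *nas-38*) the 95% interval lay within 0.2 of 0 on the log2 scale. The most positive was *nas-29*, with 1.26, 1.59 and 1.52 FPKM in N2 and 1.46, 2.25 and 1.95 FPKM in the mutant (0.37, SE 0.18, adjusted p = 0.274), followed by *nas-13* (0.26, SE 0.15, adjusted p = 0.348). At an unadjusted p under 0.05 there were 9 members, the 5 called and 4 others (*nas-4*, *nas-15*, *nas-20* and *nas-30*), where 20.2% of all tested genes were at that level. Of these 4, *nas-4* had 6.13, 5.64 and 5.75 FPKM in N2 and 5.29, 4.48 and 4.92 FPKM in the mutant (-0.25, SE 0.10, adjusted p = 0.154). By subgroup, 0 of 3 tested members were called in subgroup I, 2 of 9 in II, 3 of 13 in III, 0 of 2 in IV, 0 of 3 in V and 0 of 1 in VI. Over all tested genes 3.32% were called lower and 6.95% in either direction. The median log2 fold change was most negative in subgroup IV (-0.27, with 2 tested members). It was -0.12 in subgroup III, -0.03 in II, -0.02 in V, -0.0065 in I and -0.0070 in VI.

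Summed over all members, astacin transcripts made up 561, 571 and 579 CPM in N2 and 546, 551 and 529 CPM in *folr-1(syb4116)*, or 570 ± 9.13 against 542 ± 11.6 CPM (SD, n = 3). The strains did not overlap, and the difference was small beside the level itself. Of the change of -28.3 CPM, *nas-11* made -8.43, *nas-30* made -5.27, *nas-24* made -4.64, *toh-1* made -4.06 and *nas-20* made -3.89 CPM, while *nas-15* added 5.44 CPM. *nas-17*, *nas-19* and *nas-24* together were 1.49% of the astacin sum in N2, and their difference changed the sum by -7.86 CPM.

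Lists of related genes were set beside the astacins, and the number of calls differed from list to list. Metzincins are the wider class of zinc proteases to which astacins belong, and of 17 genes for matrix metalloproteases, ADAM and ADAMTS proteases and the metalloprotease inhibitors *timp-1* and *cri-2*, 16 were tested. None was called in either direction with edgeR or DESeq2, while edgeR called 6.95% of all tested genes. Of the 16, 6 had an unadjusted p under 0.05, where 20.2% of all tested genes were at that level. Without N2 replicate 3, 1 was called lower. Their median log2 fold change was -0.0093. The most negative of them was *timp-1* (-0.47, SE 0.22, adjusted p = 0.241), and *zmp-3* and *zmp-4* had the smallest p (-0.38 and -0.22, SE 0.13 and 0.076, adjusted p = 0.0886 and 0.0909).

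Cuticle procollagen genes and genes that act on procollagens include the substrate of DPY-31. Of 8 tested, 3 rose and 0 fell in *folr-1(syb4116)*, with a median log2 fold change of 0.06. Over all tested genes 3.64% were called higher and 3.32% lower. The procollagen gene *sqt-3*, whose product DPY-31 cuts, had 570, 490 and 613 FPKM in N2 and 645, 696 and 621 FPKM in the mutant (0.23, SE 0.062, adjusted p = 0.0334 from edgeR). The collagen gene *rol-6* (0.33, SE 0.065, adjusted p = 0.00471) and the thioredoxin-like gene *dpy-11* (0.18, SE 0.048, adjusted p = 0.0293) also rose. The number that rose was 2 with DESeq2, 0 with limma on log2(FPKM + 1), and 1 when N2 replicate 1, N2 replicate 2 or mutant replicate 2 was left out. *bli-4*, which encodes a furin-like protease that trims procollagens, was not called (-0.12, SE 0.039, adjusted p = 0.0813), nor was *dpy-17* (0.09, SE 0.21, adjusted p = 0.871). The higher summed level of epidermis markers, of which *rol-6* is one, stands beside these values, and its part in them was not tested.

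Of 16 genes whose level follows the moulting cycle, all tested, 2 rose and 1 fell, while 3.64% of all tested genes were called higher and 3.32% lower. *mlt-10* had 67.6, 58.8 and 74.9 FPKM in N2 and 86.7, 90.8 and 73.5 FPKM in the mutant (log2 fold change 0.32, SE 0.077, adjusted p = 0.0168), and *lin-42*, the worm homolog of *period*, rose by 0.21 (SE 0.049, adjusted p = 0.0123). *fbn-1*, which encodes a fibrillin-like matrix protein, fell by 0.44 on the log2 scale (SE 0.12, adjusted p = 0.0385), a call lost with limma on log2(FPKM + 1) and when N2 replicate 1 or 3 or mutant replicate 1 or 3 was left out. Without N2 replicate 2 or mutant replicate 2, 0 genes of the list rose. The moulting astacins *nas-36* and *nas-37*, which are not counted among the 38 genes, were at 22.97 ± 2.29 and 11.4 ± 0.697 FPKM in N2 and 23.01 ± 0.203 and 11.7 ± 1.46 FPKM in the mutant (SD, n = 3, adjusted p = 0.974 and 0.828 from edgeR). Over the list, the median log2 fold change was 0.05.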

How the data were processed

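RNA-seq of whole L4 larvae covered 3 biological replicates each of N2 and *folr-1(syb4116)*. Per the labels' processing notes the authors used fastp, HISAT2 and featureCounts with WBcel235 (versions not given in the sources used here), and they deposited read counts per gene without normalization. The authors' FPKM values (RPKM in the paper) were deposited too, and serve here for levels and for limma. Since the protocol allows for unstranded libraries, reads of genes overlapping on opposite strands cannot be told apart. Symbols and positions were taken from the Ensembl WBcel235 annotation, in which 46180 of 46661 gene IDs matched one gene, 478 matched none and 3 matched several. No sequences are printed, since none were at hand.

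Counts were analysed with edgeR 4.0.16 in R 4.3.3 (filterByExpr, TMM, glmQLFit and glmQLFTest on strain alone), and p-values were adjusted over all tested genes by the method of Benjamini and Hochberg. The study's methods also name DESeq2, which was run as an alternative. The SE was derived as the absolute log2 fold change over the square root of the F statistic of glmQLFTest. The 95% intervals are symmetric t intervals on that SE, also for genes near the floor, where they are rough. Bounds set against a floor of 3 counts cover counting error only. Alternatives were DESeq2 1.42.0 with its own or TMM size factors, limma 3.58.1 (voom, and log2 FPKM with a pseudocount of 1 or 0.1), relative log expression factors, no filter, at least 10 counts in every library, a replicate block, removal of a lowess trend on gene length (span 0.3) without or with the block, leaving out each library, and a threshold of 0.005 with an absolute log2 fold change over 1. Plots used matplotlib 3.10.9, pandas 2.3.3 and numpy 2.4.6 under Python 3.11.15.

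The members and lists were chosen with earlier results of these data known. Any member could be named. Full statistics were given for called members, the 6 with the highest mean FPKM and those with known roles, with genes that start within 20 kb of members that fell by more than 2-fold. Subgroups were assigned by family number after values were seen. A correction for GC content was not run.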

Additional observations from a re-analysis of the deposited data

How the results depend on the processing

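*nas-17*, *nas-19* and *nas-24* stayed called lower under every alternative that tested them, and *nas-11* under every one but the stricter threshold. With at least 10 counts in every library, *nas-17*, *nas-19* and *nas-24* were not tested and 2 astacin genes were lower. The stricter threshold left 3 lower, without *nas-9* and *nas-11*. Leaving out 1 library gave 4 to 6 lower and 0 to 1 higher, and without the filter 1 was higher (*nas-15*). Of 524 values of the 31 members under the alternatives other than that threshold, 479 kept direction and side, 8 (all *nas-9*) lost the call, 6 gained one (*nas-15*, *nas-20*, *nas-30*) and 31, all of uncalled members, changed sign. With the length trend removed, without and with the replicate block, the log2 fold changes that changed sign were -0.0029 and -0.0024 for *nas-21*, -0.013 and -0.0014 for *nas-27*, 6.25e-05 and 0.0018 for *nas-38*, and 0.023 and 0.0075 for *nas-39*. With libraries left out, sign changes fell within -0.056 to 0.062 for *nas-1*, -0.013 to 0.20 for *nas-5*, -0.077 to 0.059 for *nas-6*, -0.053 to 0.047 for *nas-8*, -0.082 to 0.027 for *nas-12*, -0.088 to 0.19 for *nas-21*, -0.20 to 0.028 for *nas-23*, -0.12 to 0.090 for *nas-27*, -0.20 to 0.16 for *nas-28*, -0.061 to 0.011 for *dpy-31*, -0.034 to 0.017 for *nas-38* and -0.19 to 0.11 for *nas-39*. Over all genes, 561 were higher and 512 lower. No filter gave 894 higher, limma on log2(FPKM + 1) gave 310 higher and 268 lower, log2(FPKM + 0.1) 309 and 274, the stricter threshold 4 and 138, and leaving out 1 library 335 to 529 higher and 337 to 470 lower. For metzincins, no filter gave 2 lower, and leaving out a library 0 to 1. For procollagen genes, the higher count was 0 with both FPKM fits and the stricter threshold, 1 with the block, the length correction or both, and 1 to 3 with a library left out, when 0 to 1 were lower. For moult genes, the higher count was 1 with DESeq2 under either size factor, 6 with no filter, 0 with both FPKM fits and the stricter threshold, 3 with the length correction with or without the block, and 0 to 3 with a library left out. The lower count was 0 with both FPKM fits, the stricter threshold, the block, and the length correction with or without it, and 0 to 1 with a library left out. The causes were not tested. Replicate numbers did not pair the samples (correlations of same-numbered deviations -0.023, -0.045 and 0.013), and the replicate block left 5 astacin genes lower.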

Other observations

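A pseudogene of the family, F54B8.13 (WBGene00003556; V:15837524-15839522, minus strand), is not among the 38 genes. The RefSeq gene table names it *nas-40*, a name that meets the rule, but the Ensembl annotation from which symbols were taken gives it none. It had 6, 6 and 12 counts in the N2 libraries and 0 in every mutant library, and was not tested. Its FPKM was 0.248, 0.243 and 0.428 in N2, and 0 counts allow up to 3 in each mutant library. K09C8.2, which shares 29 bp with the scarce member *nas-10* on the opposite strand of chromosome X, was picked once its values were known. It had 21, 20 and 20 counts in N2 and 0, 0 and 1 in *folr-1(syb4116)* (adjusted p = 7.80e-05 from edgeR).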
